A study of Mus musculus with 2 samples.

Results

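Ribosomal protein pseudogenes are copies of the messenger RNAs of ribosomal proteins that were pasted back into the mouse genome. The rows described here are those whose gene identifier carries, in the GENCODE mouse annotation, a symbol made of Rpl or Rps, a gene name and the ending -ps. In that annotation 300 symbols fit this rule, and 257 of them have a row among the 43346 gene rows of the deposited tables. The other 43 were not analysed here. Both libraries were prepared from forebrain of B6NCrl mouse embryos at embryonic day 11.5, males and females pooled and described as healthy. For replicate 1 forebrains of 109 embryos were combined, and for replicate 2 those of 88 others. Each library was made by a SmartSeq protocol from 1 cell-equivalent of total RNA over 200 nucleotides, with spike-in RNA added, so the starting material was tissue RNA and not a sorted cell. There is 1 group and no control, so values are given for each library and nothing was tested between conditions.

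A cytosolic ribosome is built from a large subunit, whose proteins carry names beginning with Rpl, and a small subunit, whose proteins carry names beginning with Rps. Their messenger RNAs are short and among the most abundant in a growing tissue, and the enzymes of transposable elements have copied them back into the genome many times. Such a processed pseudogene has lost the introns of its parent gene and usually its promoter, and it gathers mutations as it ages. A young copy can be so like its parent that a short read fits both. The number that a table then gives for the pseudogene depends on how the reads were shared out.

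All of the 257 rows but 1 (Rpl48-ps1) had a parent with a row of its own, and these parents numbered 57. Best alignment to a parent transcript was possible for 255, with a median identity of 96.98% over the aligned bases, and 251 aligned over at least 90 of each 100 bases of their length. A further measure was the share of a row's 100-base windows that occur exactly in no transcript of any other annotated gene on either strand, called private windows here; 100 bases were used because the deposited effective lengths are shorter than the lengths by 99 bases. The median row had 87.1% private windows. Of the 257 rows, 30 had no private window, 44 had some but under 50%, 87 had 50% or more and 96 had private windows only. The sequences below, read from the GENCODE M21 transcripts and oriented along the parent's reading frame, show 4 rows, each beside its parent. Rps23-ps1 and Rpl35a-ps2 have no private window, Rps13-ps4 has 40.1% and Rpl32-ps has private windows only. No row of the group of 87 is shown. Capitals mark the bases at which pseudogene and parent differ, and each window is the ungapped 100-base coding stretch with the most differences.

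Rps23-ps1 (chr3:37714740-37715164, plus strand, mm10) and Rps23 (chr13:90922958-90924950, plus strand) are shown over coding bases 1 to 100, where they do not differ, because this copy held the highest level of all.
Rps23-ps1: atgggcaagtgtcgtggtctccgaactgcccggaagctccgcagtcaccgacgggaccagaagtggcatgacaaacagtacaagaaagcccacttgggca
Rps23: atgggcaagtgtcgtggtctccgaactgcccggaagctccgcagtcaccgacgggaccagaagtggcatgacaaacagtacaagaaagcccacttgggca

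Rpl35a-ps2 (chr1:181241988-181242320, minus strand) and Rpl35a (chr16:33056453-33060189, plus strand) are shown over coding bases 57 to 156, with 1 difference, because the same copy stands at 4 places in the genome.
Rpl35a-ps2: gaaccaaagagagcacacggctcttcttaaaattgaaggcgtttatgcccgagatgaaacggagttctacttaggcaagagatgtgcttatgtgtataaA
Rpl35a: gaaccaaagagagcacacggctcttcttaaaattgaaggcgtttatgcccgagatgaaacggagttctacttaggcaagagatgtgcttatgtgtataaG

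Rps13-ps4 (chr8:119602170-119602625, minus strand) and Rps13 (chr7:116331505-116334195, minus strand) are shown over coding bases 22 to 121, with 2 differences, because this copy differed most between the libraries.
Rps13-ps4: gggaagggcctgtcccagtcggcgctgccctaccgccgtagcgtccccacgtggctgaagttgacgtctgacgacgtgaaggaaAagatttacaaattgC
Rps13: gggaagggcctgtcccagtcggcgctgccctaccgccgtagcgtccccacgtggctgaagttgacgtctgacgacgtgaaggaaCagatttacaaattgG

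Rpl32-ps (chr3:69716940-69717445, minus strand) and Rpl32 (chr6:115805505-115808747, minus strand) are shown over coding bases 166 to 265, with 9 differences, because every 100-base window of this diverged copy is its own and it still held counts in both libraries.
Rpl32-ps: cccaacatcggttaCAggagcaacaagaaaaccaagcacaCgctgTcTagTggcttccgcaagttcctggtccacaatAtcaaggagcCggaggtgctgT
Rpl32: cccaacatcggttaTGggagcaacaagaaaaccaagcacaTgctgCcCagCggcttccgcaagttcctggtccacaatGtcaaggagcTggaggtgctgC

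Expected counts summed to 28639678 for replicate 1 and to 28948074 for replicate 2, of which 27395002 and 27977544 lay in gene rows. A count of 0 in a row allows up to 3 counts, or 0.110 and 0.107 counts per 1000000 gene counts (CPM), and this limit covers counting error only. All 7 forebrain markers were above a TPM of 1 in both libraries, and the midbrain and hindbrain marker En1 was listed at 0 in both. RNA of other cell types was present as well. The 3 erythroid globins summed to a TPM of 24056 in replicate 1 and 29337 in replicate 2, the 3 endothelial markers to 90.6 and 96.0, and the 3 mesenchyme markers to 321 and 249.95. The part of these cells in the pseudogene values was not tested.

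Ribosomal protein pseudogenes took 77859 counts in replicate 1 and 75267 in replicate 2. That is 0.284% of the gene counts in replicate 1 (95% Wilson interval 0.282 to 0.286) and 0.269% in replicate 2 (0.267 to 0.271). The Wilson intervals here and below treat each count as an independent read. They cover neither the sharing of reads among genes nor the spread between libraries. Measured against their 57 parents, which held 660315 and 651170 counts, the pseudogenes held 11.8% and 11.6% as many (mean 11.7%, SD 0.164, n = 2). Without the 12 rows that are exact copies of a stretch of a parent transcript, this figure was 1.89%. At a TPM (transcripts per 1000000 transcripts) of at least 1 in both libraries, 55 of the 257 rows were detected, or 21.4%, beside 16.6% of all gene rows. Another 8 rows reached this level in replicate 1 only, 12 in replicate 2 only, and 182 in neither. No count at all was given to 121 rows in either library, or 47.1%, beside 67.2% of all gene rows. The last row inside the limit was Rps15a-ps5, with a lower TPM of 1.31, and the first outside was Rps6-ps1 with 0.82. Large-subunit copies made up 155 of the rows, 32 of them detected in both libraries, and small-subunit copies made up 102, with 23 detected. All 57 parents were detected in both libraries.

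The counts were concentrated in a few rows. The 10 highest rows of a library held 84.6% of the pseudogene counts in replicate 1 and 84.1% in replicate 2. The 10 rows with the highest mean TPM are all exact copies of their parent, with no mismatch and no gap over the whole annotated copy, and no 100-base window of that copy is private. Exact copies numbered 12 in all, and together they held 83.6% of the pseudogene counts in replicate 1 (95% Wilson interval 83.3 to 83.9) and 83.9% in replicate 2 (83.7 to 84.2). These intervals are too narrow where reads were shared out. The count of Rpl15-ps3 alone had a posterior SD of 1312 in replicate 1 and 2030 in replicate 2. For these 12 rows every window of the annotated copy also lies in the parent, so no read of this length from these bases could be placed on the copy alone by its sequence.

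Large-subunit proteins supplied 7 of the 10 highest rows. Rpl15-ps3, a copy of the messenger of a large-subunit core protein, at chr9:22185607-22186221, had a TPM of 1034 in replicate 1 and 1105 in replicate 2. Its expected counts, 11939 and 12646, were the largest of any of the 257 rows and exceeded those of Rpl15 itself, at 11809 and 9235. Rpl31-ps8, at chr15:90764279-90764656, had a TPM of 736 and 870.5, while Rpl31 had 514 and 610.5. The replicate 2 level was the higher one for both pseudogene and parent. Rpl27-ps3 had a TPM of 877 and 630.2, and Rpl27 had 149.3 and 304. Here the pseudogene was higher in replicate 1 and the parent in replicate 2. The deposited row of Rpl27-ps3 is 475 bases long and the annotated copy used for its sequence 411, so its extra bases were not compared. Rpl28-ps1, at chr1:128038569-128038982 inside an intron of Zranb3 on the other strand, had a TPM of 729.7 and 696, beside 432 and 353 for Rpl28. The pseudogene stood above its parent in both libraries.

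Rpl10-ps1 copies Rpl10, whose protein joins the large subunit late in its assembly. It lies at chr2:105554201-105554845, in an intron of the noncoding gene Pax6os1 on the same strand, and had a TPM of 343 and 399.7. Pax6os1 itself was listed at 0 in both libraries, and Rpl10 had a TPM of 591 and 707. Rpl38-ps2 copies Rpl38, a gene known for its role in the translation of Hox messengers and in patterning the skeleton, and had a TPM of 388 and 320.0 beside 1257 and 1146 for its parent. Rpl10a-ps1 had a TPM of 339 and 228, close beneath Rpl10a with 358 and 241. In both of these pairs the level of copy and parent was the lower one in replicate 2.

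Small-subunit copies held the remaining 3 places. Rps23-ps1 copies Rps23, whose protein sits at the decoding centre of the small subunit. It had the highest level of all 257 rows, a TPM of 1558 in replicate 1 and 1479 in replicate 2, while Rps23 had 314 and 279.7. In expected counts the pseudogene had 11369 and 10693 against 4617 and 4076 for the parent. Thus the pseudogene row held 246% and 262% of its parent's counts. Some of its bases lie within exons of Gm5148 on the opposite strand. Gm5148 had a TPM of 3.42 and 11.5, and no source used here states whether the counting kept the strands apart. Rps6-ps4 copies Rps6, the small-subunit protein phosphorylated by S6 kinases, and had a TPM of 766 and 674, beside 840.4 and 724 for Rps6. Rps13-ps2 had 390.1 and 535, beside 859.7 and 961. Both of these copies stayed below their parents.

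**Figure D1:**
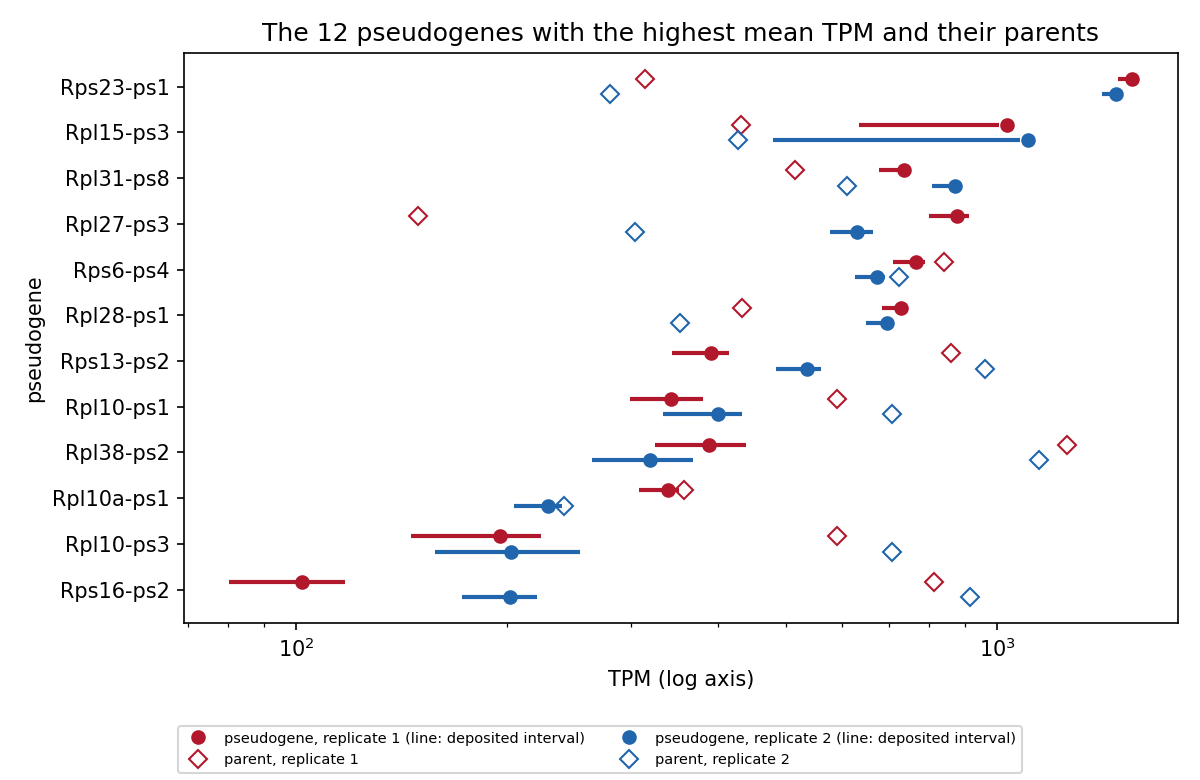
TPM (log axis) of the 12 rows with the highest mean, filled circles for the pseudogene and open diamonds for its parent, red for replicate 1 and blue for replicate 2; lines are the deposited interval of the pseudogene's posterior mean TPM. Rps23-ps1 lies near 1558 and 1479, far to the right of Rps23 at 314 and 279.7, and the interval of Rpl15-ps3 is the widest.

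The deposited interval bounds go with the posterior mean and not with the point estimate of TPM. For Rps23-ps1 the interval ran from 1487 to 1555 in replicate 1, so the point estimate lay above it. The same was so for Rpl15-ps3, whose interval ran from 635 to 1004 in replicate 1 and from 478 to 1079 in replicate 2. These were the only detected rows whose TPM fell outside the interval in either library. The level of the interval is not stated in the sources used here. Of the rows detected in a library, 46 of 63 in replicate 1 and 49 of 67 in replicate 2 had a lower bound of at least 1.

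Summing parent and pseudogenes gives a value that does not depend on how reads were split between them, although copies outside the naming rule are not in it. In 11 families the pseudogenes held at least 10% of the summed counts of parent and pseudogenes, averaged over the libraries. The Rps23 family had 71.8% of its counts in pseudogenes, Rpl27 67.01%, Rpl15 54.0% and Rpl28 53.2%. In the Rpl27 family parent and pseudogenes went in opposite directions. The parent counts went from 2013 in replicate 1 to 4227 in replicate 2 while those of its 3 pseudogenes went from 7381 to 5260.1. On the log2 scale of CPM, the replicate 2 minus replicate 1 difference was 1.04 for the parent, -0.52 for the pseudogenes and -0.02 for their sum. Rpl15 also had the parent and the pseudogenes differing in opposite directions, by -0.39 and 0.05, with -0.15 for the sum. In the other 9 families parent and pseudogenes differed in the same direction. In Rps12, for example, the parent differed by 0.86, the pseudogenes by 0.66 and the sum by 0.82. The sum was nearer to 0 than the parent alone in 8 of the 11 families. Over the 11 the median absolute difference was 0.37 for the parents, 0.23 for the pseudogenes summed and 0.23 for the sums of both. In the other 46 families it was 0.323 for the parents and 0.325 for the sums. The difference of a sum lies between those of its parts by arithmetic, so these values do not test how reads were split. These 2 libraries give no error for such differences.

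**Figure D2:**
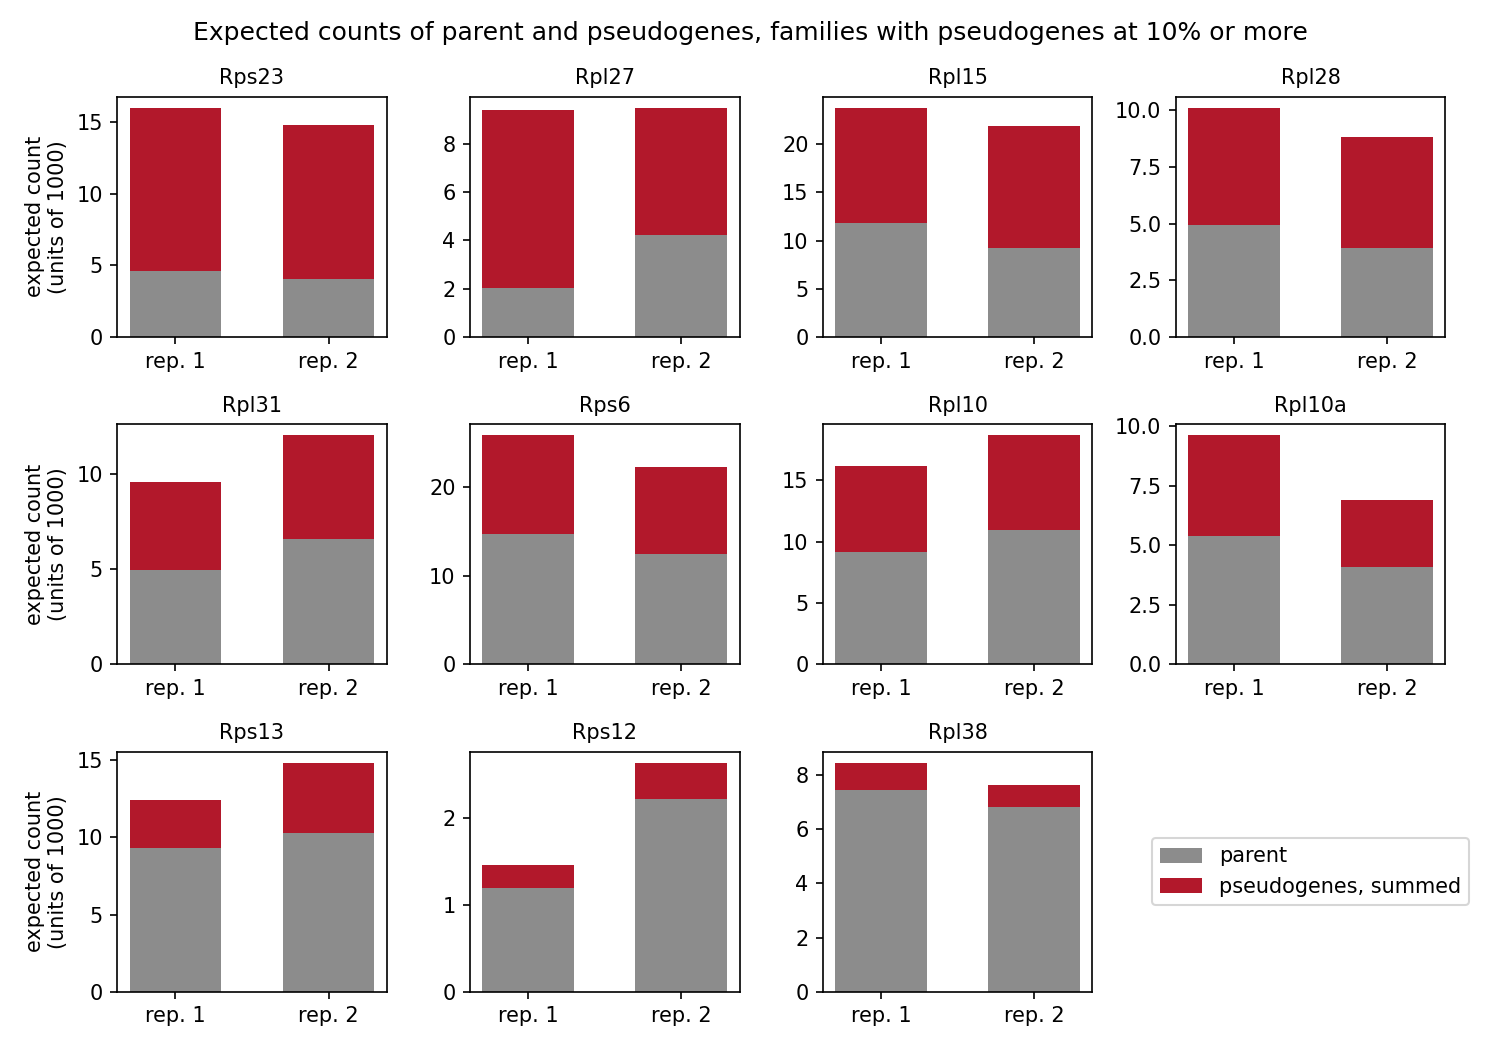
Expected counts, in units of 1000 (bars from 0), of the parent in grey and of its pseudogenes summed in red, for replicates 1 and 2 of the 11 families with at least 10% of counts in pseudogenes. In the Rpl27 panel the grey part is 2013 counts in replicate 1 and 4227 in replicate 2, while the heights of the whole bars differ by -0.02 on the log2 scale of CPM.

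Below the exact copies stood rows that keep nearly all of the parent sequence. Identity and level went together over the 255 aligned rows, with a Spearman rho of 0.77 between identity and mean TPM. All these points come from the same 2 libraries and share reads with their parents. Among 59 rows with an identity of at least 99%, 39 were detected in both libraries. From 97% to under 99% it was 12 of 67, from 93% to under 97% it was 4 of 69, and below 93% it was 0 of 60. The lowest identity of a row detected in both libraries was 93.9%, for Rpl32-ps. Rpl19-ps11, Rpl3-ps1, Rps2-ps10 and Rps27a-ps2 led the rows with at least 1 difference from the parent, apart from Rpl10-ps3. Rpl19-ps11 had a TPM of 91.2 and 119, and Rpl3-ps1, copied from the gene of one of the largest ribosomal proteins, had 77.8 and 63.4. Rpl19-ps11 amounted to 9.95% and 10.1% of the parent's counts and Rpl3-ps1 to 5.74% and 5.53%. The deposited row of Rpl19-ps11 is 718 bases long and the annotated copy 591, so its extra bases were not compared. This copy also shares exonic bases with Gm27288 on the same strand. Across all rows, 12 held more than 10% of the parent's counts in both libraries, 27 held more than 1%, and 225 held under 1% in both.

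**Figure D3:**
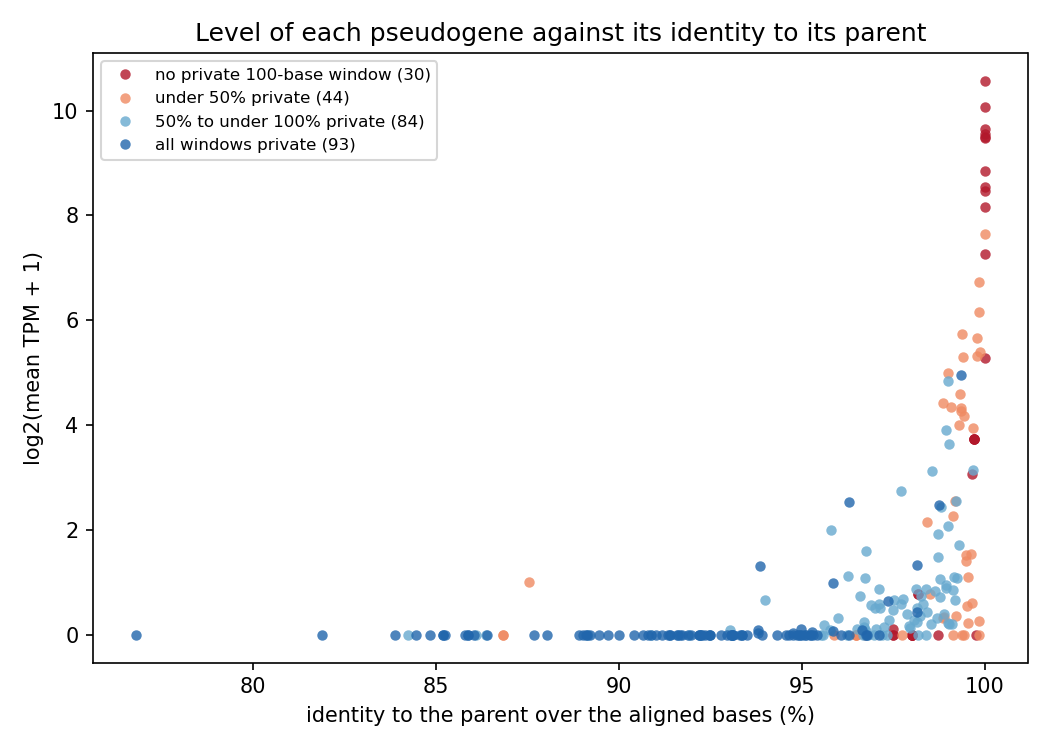
Mean TPM on the scale log2(TPM + 1) against identity to the parent in percent, for the rows aligned over at least 90% of their length, coloured by their share of private 100-base windows. High levels stand at an identity of 99% or more, and no row plotted below 93% was detected in both libraries.

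Rows made only of private windows give the reading that depends least on sharing. There were 96 of them, with 281 counts in replicate 1 and 282 in replicate 2, or 0.361% (95% Wilson interval 0.321 to 0.406) and 0.374% (0.333 to 0.421) of the pseudogene counts. Of these 96 rows, 81 had no count in either library and 4 were detected in both. Rpl39-ps, from the gene of a very small large-subunit protein, had 174 and 167 counts. Its deposited row is 355 bases long and the annotated copy only 151, so its windows could not be read over the whole deposited row. Rpl36-ps3, with 35.9 and 21.8 counts, is likewise longer in the deposited tables, at 384 bases against 315. The 86 rows with private windows only and the same length in both annotation releases held 70.2 counts in replicate 1 and 92.1 in replicate 2. That is 0.0901% and 0.122% of the pseudogene counts. Rpl32-ps keeps the same length in both annotation releases. It lies between genes and had 13.8 and 13 counts, a TPM of 1.52 and 1.44, beside 2169 and 2510 for Rpl32. That is 0.07% and 0.06% of the parent's counts.

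The posterior SD of a count, given in the deposited tables, is the spread of that count under the model that shared out the reads. Among rows with a posterior mean count of at least 10, its median was 11.6% of that mean in replicate 1 (69 rows) and 11.5% in replicate 2 (74 rows). Parents had medians of 0.424% and 0.310%, and other processed pseudogenes 10.6% and 10.8%. Over all gene rows at this count the median was 0 in both libraries. All 57 parents had a posterior mean count of at least 1000. At that count the medians were 3.65% and 3.62% for 13 ribosomal protein pseudogenes in each library, against the 0.424% and 0.310% of the parents. Other processed pseudogenes were near the ribosomal protein pseudogenes there, with 2.95% in replicate 1 (64 rows) and 3.17% in replicate 2 (56 rows). Between 10 and 100 posterior mean counts the medians were 22.6% and 18.6% for ribosomal protein pseudogenes, against 14.2% and 14.6% for other processed pseudogenes.

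At the low end, Rpl32-ps had a relative posterior SD of 2.97% and 0. Of the 5 rows with the lowest values, 3 were exact copies with large counts: Rps23-ps1 at 0.66% and 0.64%, Rpl28-ps1 at 1.55% and 1.64%, and Rpl31-ps8 at 2.14% and 2.09%. A small posterior SD was thus found both for rows with only private windows and for rows with none. For rows with none it does not show that their reads were told apart from those of the parent by sequence. Rpl15-ps3 was the exception among the abundant copies, at 13.0% and 19.5%. The highest values among rows with a posterior mean count of at least 10 in both libraries were those of Rpl21-ps15 (103% and 87.1%), Rpl30-ps9 (93.1% and 73.3%), Rpl35a-ps3 (87.4% and 83.0%), Rpl35a-ps6 (86.5% and 67.8%) and Rpl35a-ps2 (71.1% and 82.0%).

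**Figure D4:**
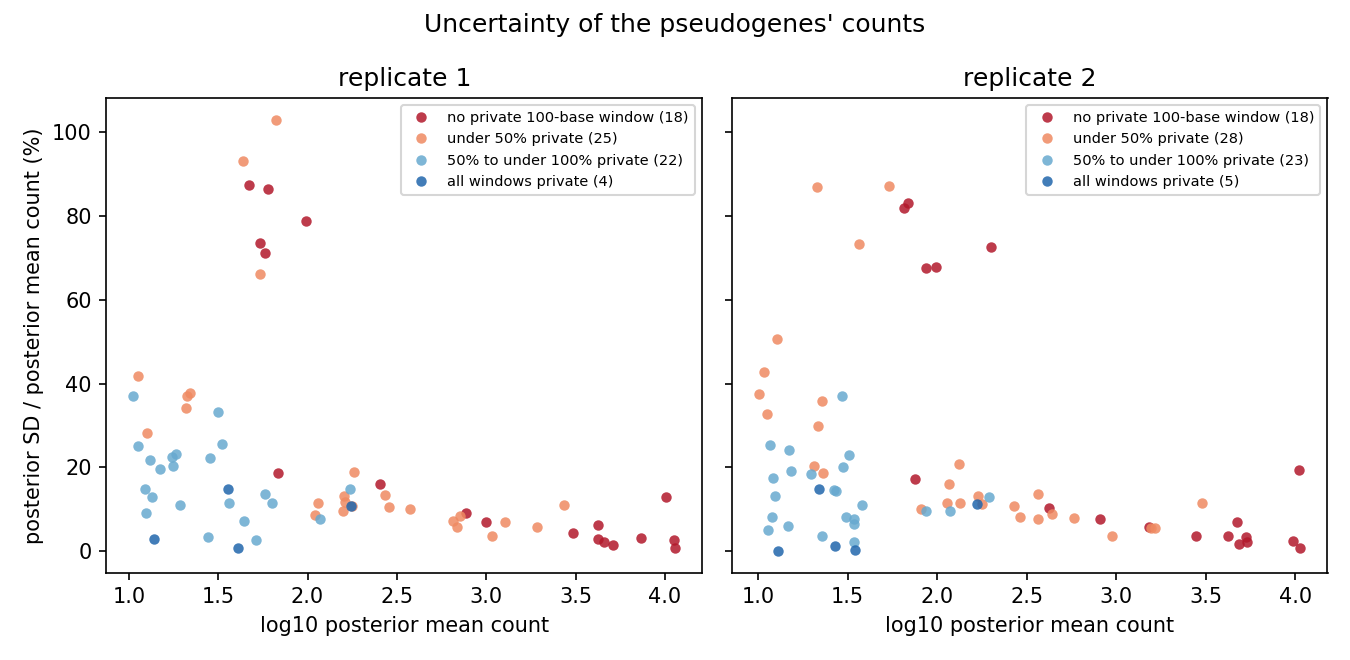
Posterior SD as a percent of the posterior mean count against log10 posterior mean count, for rows with a posterior mean count of at least 10, replicate 1 left and replicate 2 right, coloured by the share of private windows. Rows with no private window appear at both extremes, near 0.66% for Rps23-ps1 and near 87.4% for Rpl35a-ps3 in replicate 1.

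Rpl35a-ps2, Rpl35a-ps3, Rpl35a-ps4 and Rpl35a-ps6 lie on chromosomes 1, 17, 2 and 5 and have the same 333-base sequence, which differs from Rpl35a at 1 aligned base. Each was given exactly 52.43 counts in replicate 1 and 75.51 in replicate 2. The deposited intervals ran from 0 to 26.2 TPM for Rpl35a-ps2 in replicate 1, around a TPM of 10.01. Altogether 14 rows fall into 4 groups of identical sequence. Rps19-ps1 and Rps19-ps2, both on chromosome 14, were likewise given the same counts, 4.61 in replicate 1 and 6.26 in replicate 2. The other 2 groups are Rps12 copies, all at 0 counts except Rps12-ps17, which had 1.14 counts in replicate 2 while Rps12-ps18 and Rps12-ps6, of the same sequence, had 0.

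A row listed at 0 was not always firmly at 0. Of the 142 rows without a count in replicate 1, 11 had an upper bound of at least 1 TPM, and so had 11 of the 134 in replicate 2. Rpl21-ps15, on the X chromosome, had no expected count in either library but a posterior mean TPM of 7.67 and 6.28 and upper bounds of 24.7 and 16.2. Rpl30-ps9, also on the X chromosome, had 7.93 and 6.74 with upper bounds of 22.4 and 16.0. Rpl7a-ps11 had 6.12 and 12.6 with upper bounds of 15.2 and 32.2. For these 3 rows the point estimate and the posterior mean put the pseudogene on different sides of the detection limit.

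Rows that the later annotation lists as protein coding in spite of their names numbered 6. Rpl10-ps3, at chr9:50344201-50344968, was the highest of them, with a TPM of 195 and 202. It matches Rpl10 without a mismatch or gap over its 740 aligned bases, but 4.19% of the windows of the annotated copy are private. The deposited row of Rpl10-ps3 is 742 bases long and the annotated copy 768. Whether the deposited row holds these private windows was therefore not read. Rpl9-ps6 had a TPM of 54.2 and 27.9 while Rpl9 had 1179 and 594, so both were lower in replicate 2. Rps12-ps3 is an exact copy, had 28.5 and 46.8, and lies in an intron of Pdzd8 on the other strand. Rpl36a-ps1 had a TPM of 2.38 and 4.52. Rpl9-ps1 and Rpl36-ps4 were listed at 0 in both libraries, and every window of both is private.

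Reading frames were carried over from the parent by the alignment. In 122 rows the start codon was kept and the frame ran without a stop for at least the parent's length, and 43 of these were detected in both libraries. In 76 a stop codon came before the parent's number of codons was reached, at any distance from its end, and 6 of these were detected. The highest of them was Rpl14-ps1, with 216 of 217 codons open and 3 gap bases in its alignment, at a TPM of 49.9 and 27.1. In 15 the frame was open to the end of a row shorter than the parent's frame. Rps23-ps1 is one of these, with 141 of 143 codons. In 42 the start codon was not kept, and 3 of these were detected. An open frame also goes with a high identity, with a median of 98.4% against 95.2% for those 76 rows.

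Differences between the libraries lay on both sides of 0. Among the 67 rows with a mean TPM of at least 1, 34 were higher in replicate 2 and 32 in replicate 1. The median difference, replicate 2 minus replicate 1 in log2(TPM + 1), was 0.030, and the median absolute difference was 0.46. All 11107 gene rows at this level had a median absolute difference of 1.45. Pearson's r of log2(TPM + 1) between the libraries was 0.93 over the 67 rows, as a description of rows that share reads with each other and with their parents. At a mean TPM of at least 10, 2 of 37 rows differed by at least 1 on this scale, or 5.41%, beside 51.3% of all gene rows at that level. Parents stood at 4 of 57 and other processed pseudogenes at 54 of 175. Levels differ between these sets, so the same count was taken at a mean TPM from 10 to 100, where it was 2 of 24 for ribosomal protein pseudogenes, 49 of 112 for other processed pseudogenes and 3617 of 6022 for all gene rows. Both libraries are pools of many cells, so fewer cells of a type and less RNA per cell cannot be told apart in any such difference.

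Rps13-ps4 was one of the 2 rows. It had a TPM of 0 in replicate 1 and 36.5 in replicate 2, from 0 and 289 counts, with an interval of 0 to 1.30 in replicate 1 and 29.1 to 43.0 in replicate 2. The intervals do not overlap, but each describes its own library and holds no spread between libraries. It lies in an intron of Taf1c on the same strand, and Taf1c, which encodes a subunit of an RNA polymerase I initiation factor, also had a TPM of 0 in replicate 1 and 20.7 in replicate 2. Their part in each other's values was not tested. Of its windows 40.1% are private and 54.9% lie in Rps13, whose TPM was 859.7 and 961. Rps27a-ps2 was the other, with a TPM of 78.5 in replicate 1 and 20.7 in replicate 2. It copies Rps27a, which encodes a ribosomal protein fused to ubiquitin, and had 21.5% private windows. Rps27a was lower in replicate 2 as well, at 730.5 against 1123, and Lca5, whose intron holds the copy on the other strand, was higher there, at 38.2 against 8.20.

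The next rows in size of difference stayed under 1 on the log2(TPM + 1) scale. Rps25-ps1 had a TPM of 9.01 and 19.0 and Rps16-ps2, an exact copy, 102 and 202, both higher in replicate 2. Their parents were higher in replicate 2 as well, Rps25 at 1241 and 1592 and Rps16 at 811 and 915. Rpl9-ps6 and Rpl14-ps1 were higher in replicate 1, and so were Rpl9 and Rpl14, the last with a TPM of 916 and 590.5. Intervals of the libraries were apart for 18 of the 67 rows with a mean TPM of at least 1. The same count over all gene rows was not taken, so the number is not read as particular to these pseudogenes. Each interval describes its own library and holds no spread between libraries. Rps23-ps1, Rpl31-ps8, Rpl27-ps3, Rps6-ps4, Rps13-ps2 and Rpl10a-ps1 are among these 18, with narrow intervals and differences under 2-fold.

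**Figure D5:**
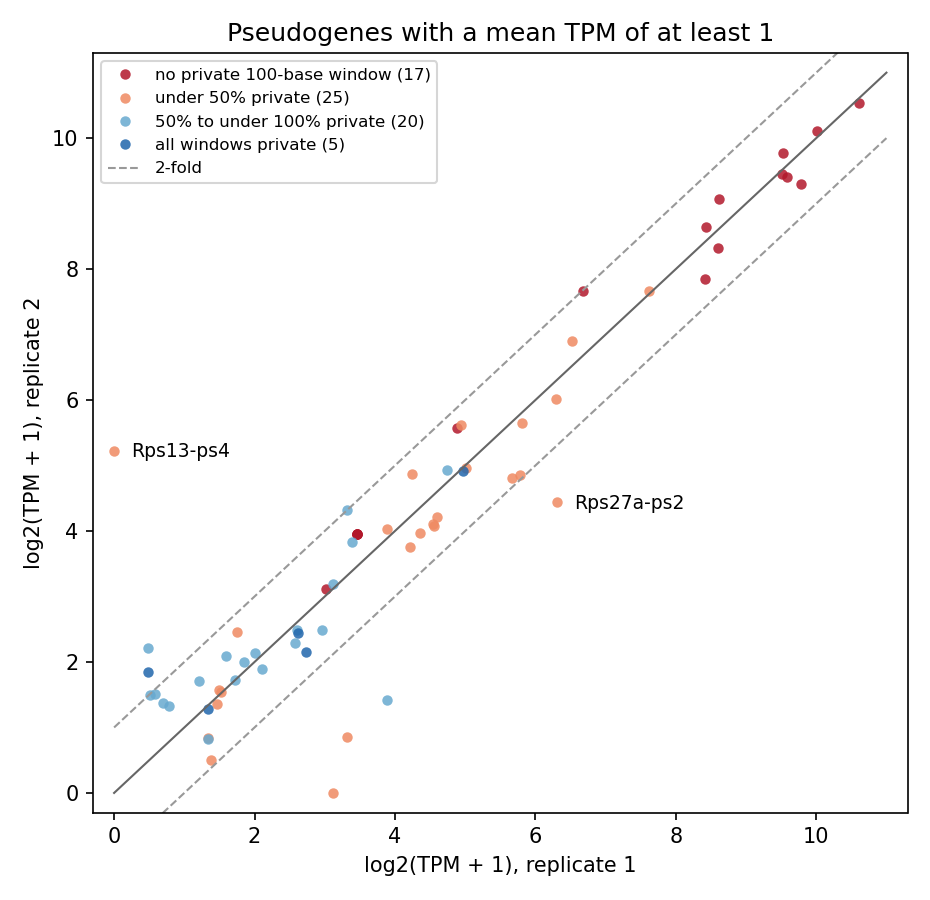
Level on the scale log2(TPM + 1) in replicate 2 against replicate 1 for the 67 rows with a mean TPM of at least 1, coloured by the share of private windows, with the line of equality and dashed lines at a difference of 1. Rps13-ps4, at 0 and 36.5 TPM, and Rps27a-ps2, at 78.5 and 20.7 TPM, lie outside the dashed lines, while the exact copies at the upper right lie within them.

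Many copies of a parent did not mean many counts. Rps12 has 22 copies in the tables, the most of any parent, and Rpl31 has 21. Of the 22 Rps12 copies 1 was detected in both libraries, Rps12-ps3, and 16 had no count at all. On the X chromosome, which holds 35 of the 257 rows, 15 are Rps12 copies, and 13 of these lie within 2.70 megabases, between positions 123285044 and 125987364. In this cluster 12 rows had no count in either library, and Rps12-ps17 had 1.14 counts in replicate 2. Rpl31 put nearly all of its pseudogene counts in Rpl31-ps8, with 4598 of 4622 in replicate 1 and 5386.5 of 5436 in replicate 2.

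By position, 178 rows lie between genes, 51 in an intron on the opposite strand of the host gene, 22 in an intron on the same strand, and 6 share exonic bases with another gene. Detection in both libraries was 28 of 178, 17 of 51, 8 of 22 and 2 of 6. Of the same-strand intronic rows, 20 have a host with a row of its own. The host was detected in both libraries in 10 of these cases, in which 3 copies were detected, and not in the other 10, in which 4 were. Rps15a-ps6, in an intron of Nudcd3, had a TPM of 2.61 and 2.99, beside 25.5 and 23.2 for Nudcd3.

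Other pseudogenes set these values in proportion. Of 5281 other rows annotated as processed pseudogenes, 377 were detected in both libraries, or 7.14%, and 73.8% had no count in either, against 47.1% of the ribosomal protein pseudogenes. Rows with symbols ending in -ps but from other parents numbered 894, of which 58 were detected in both. The naming rule does not reach every row that shares sequence with a ribosomal protein gene. A further 269 rows outside the rule share at least 1 window of 100 bases with a ribosomal protein gene on either strand. Of these, 86 were detected in both libraries, and the 269 held 122840 counts in replicate 1 and 114872 in replicate 2. Sharing 1 window does not make a row a copy or a pseudogene, and these rows were not sorted further.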

How the data were processed

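Each library was sequenced from pooled forebrain RNA, and the authors deposited gene tables of expected counts (estimated reads, shared out among genes), with posterior means and TPM. The tables deposited also hold FPKM, which was not used, and posterior SDs, lengths and interval bounds, read as a score. The text deposited with them names mm10 and GENCODE M4. The aligner, quantifier and strand use were not given in the sources used here. Symbols, classes, coordinates and transcripts came from GENCODE M21 (same assembly), and 218 of 257 rows have the same length in both releases. Bare-number and spike-in rows were left out, except that deposited TPM includes them.

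Differences are replicate 2 minus replicate 1 in log2(TPM + 1), which understates low rows. Windows of 100 bases were matched exactly. Alignments were local (Biopython 1.88, match 1, mismatch -1, gap -3 and -0.5), tested on simulated sequences. The parent is the symbol before -ps, with Rps3a read as Rps3a1 and Rps4 as Rps4x. Rows named in the text are the 10 highest in mean TPM, the 5 highest in percent of parent counts, the 5 lowest and 5 highest in relative posterior SD, the 3 largest differences each way at a mean TPM of at least 10, and rows not annotated as pseudogenes; others named were chosen after their values were seen. A row that this rule names is not reported here. The members and lists were chosen with earlier results of these data known. The libraries are separate pools, so their spread joins biological and technical error.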

Additional observations from a re-analysis of the deposited data

How the results depend on the processing

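No paired analysis was possible because there is 1 group. Detection in both libraries stayed within 1.5 times of 55 rows under every setting tried, from 38 at a TPM of at least 5 to 70 at 0.5, and was 43 where the interval's lower bound had to reach 1, a setting chosen after seeing the data. With 1 library left out it was 67 without replicate 1 and 63 without replicate 2. Pseudogene counts were 11.7% of parent counts and became 16.3% in TPM, 11.4% in posterior mean counts, 11.1% over annotated pseudogenes, 9.77% over rows that share no exonic base and, chosen after seeing the data, 1.89% without the exact copies; leaving out a library gave 11.6% and 11.8%. The median relative posterior SD was 11.5% and became 20.7% from a posterior mean count of 1 and 10.2% from 50. The median library difference of 0.030 became 0.044 with a pseudocount of 0.1, 0.069 without a filter on TPM, 0.050 at a mean TPM of at least 10, 0.011 without spike-ins and 0.00013 in CPM. The count of 2 rows differing 2-fold became 7 at a mean TPM of at least 1. The median share of private windows was 87.1% and became 57.6% with windows of 50 bases, 75.5% with 75, 87.3% over annotated pseudogenes, 87.3% against genes in the deposited tables only and 89.4% over rows of the same length in both releases, the last 2 chosen after seeing the data. Median identity was 96.98% and became 96.97% with the longest parent transcript, 96.7% over the whole row, 96.9% over annotated pseudogenes and 96.7% over rows of the same length. The cause of these changes was not tested. All 48 alternatives for the library differences of named rows kept their sign. Leaving out a library gives no library difference. Depth limits rows at 0 to the bounds given.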
